A study of Homo sapiens with 3 samples.

Results

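Intermediate filament genes other than the keratins were measured as a family of 10: VIM, DES, GFAP and PRPH of class III, and NEFL, NEFM, NEFH, INA, SYNM and NES, placed here in class IV. The 10 were taken by gene symbol out of the 35880 symbols in the transcript table, and all 10 were listed above 0 in every library. The cells were HEK293T, an established line derived from human embryonic kidney and transformed with, among others, the large T antigen of SV40. They were untreated, grown in high-glucose medium with 10% fetal bovine serum to 70% confluence, and oligo-dT-captured RNA from 3 libraries labelled as biological replicates was sequenced. Nothing in the labels ties the replicates to different cultures, and every p-value here covers only how much the 3 libraries scattered, possibly for technical reasons. There was 1 group and no second condition.

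Intermediate filament proteins share a coiled-coil rod, pair along it and pack into ropes that give cells and axons mechanical strength. Neurons build neurofilaments from a light (NEFL), a medium (NEFM) and a heavy (NEFH) subunit together with alpha-internexin (INA), with peripherin (PRPH) as a partner in peripheral neurons. Vimentin (VIM) marks mesenchymal and many cultured cells, desmin (DES) muscle and glial fibrillary acidic protein (GFAP) astrocytes, while nestin (NES) and synemin (SYNM) need a partner such as vimentin or desmin to enter filaments. Values are TPM, a relative abundance scaled for transcript length within each library, summed over the transcripts of a gene, as mean ± SD over the 3 libraries (n = 3).

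Vimentin was the most abundant member, followed by 3 of the 4 neurofilament subunits, while the heavy subunit was the lowest of all 10. Each symbol's log2(TPM + 0.01) was set against 1 TPM with limma, and p-values were adjusted over 21990 symbols by Benjamini-Hochberg. On this test 8 of 10 members lay above 1 TPM and 2 below. Over all symbols tested, 58.5% lay above and 33.9% below, so on these counts alone the family was not set apart. The members' median level was 2.90 TPM, beside 4.29 TPM over all symbols tested. VIM, the highest member, exceeded NEFH, the lowest, by 11.25 ± 0.40 on the log2 scale (± SE, limma adjusted p = 1.67e-06). That pair was picked by its levels in these same libraries, and the range was not set beside that of other gene sets.

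**Figure D1:**
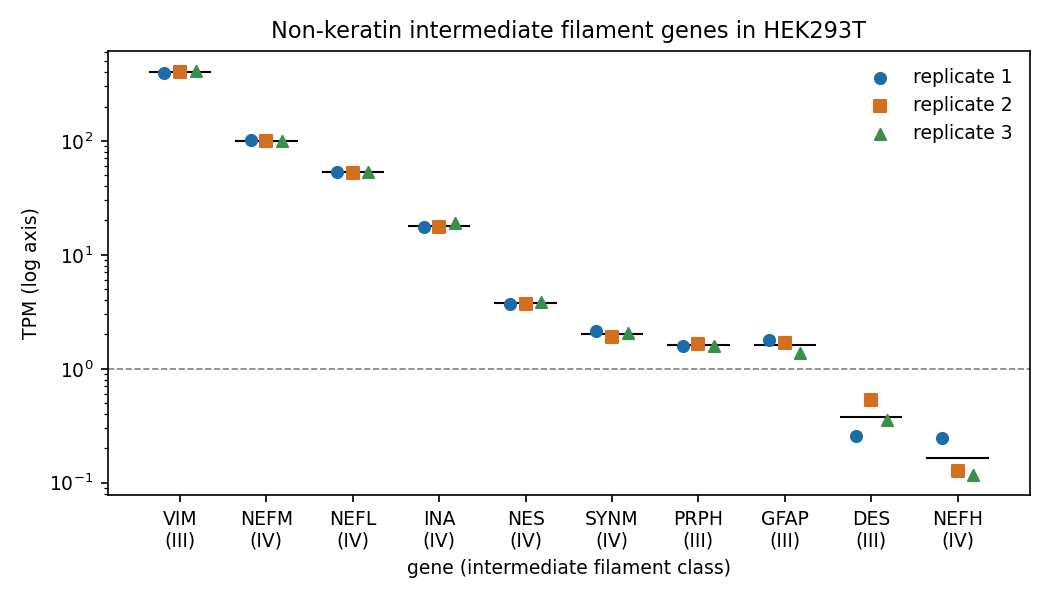
TPM on a log axis of each of the 10 genes, with its class below the name; symbols are the 3 libraries, bars their means and the dashed line 1 TPM. Library values of the 5 highest genes lie close together, PRPH and GFAP overlap, and DES and NEFH lie under the line in all 3 libraries.

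Replicates 1, 2 and 3 gave 393, 401 and 410.2 TPM for VIM. It ranked 321st of all symbols and 315th of 19802 protein-coding ones. The gene lies on chromosome 10 (17228259 to 17237593, plus strand, hg38), and 96.8% ± 0.498 of its TPM fell on VIM-201, the spliced coding transcript that begins at 17229278. Of the transcripts annotated as starting further upstream, VIM-204 reached 4.93 ± 0.941 TPM, and VIM-209, which begins at 17228259 and contains all 1398 coding bases of VIM-201, stood at 0.512, 0.154 and 0.170 TPM. Transcripts annotated as targets of nonsense-mediated decay held 0.810% ± 0.147 of VIM's TPM and retained introns 0.565% ± 0.103. VIM thus rested on 1 transcript in every library. An annotated antisense gene, VIM-AS1, spans the start of VIM-201 on the minus strand, and no transcript was listed under that symbol. The libraries were made with a directional kit, but whether quantification used strand is not given in the sources used here. Sense and antisense reads may therefore not be told apart where VIM and VIM-AS1 overlap. Annotated antisense genes, also not listed by symbol, overlap NEFL, NEFM, NEFH, DES, PRPH and SYNM, and that of PRPH spans the whole gene. The same limit holds for these members.

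NEFM, the medium subunit, was listed at 101.1, 99.9 and 98.8 TPM, and NEFL, the light subunit on which neurofilament assembly depends, at 52.9, 52.2 and 53.1 TPM. INA, which joins neurofilaments of the central nervous system, was listed at 17.6, 17.5 and 18.9 TPM. The heavy subunit NEFH, whose long tail carries many phosphorylation sites, was listed at 0.248, 0.128 and 0.117 TPM. These 4 levels did not overlap in any library, and their order was NEFM, NEFL, INA and NEFH in all 3. NEFM exceeded NEFL 1.91-, 1.91- and 1.86-fold in replicates 1, 2 and 3, a difference of 0.92 ± 0.02 on the log2 scale (± SE; limma adjusted p = 1.88e-06 over 21989 symbols; over all of them, 98.5% differed from NEFL). NEFL exceeded INA by 1.55 ± 0.04 (adjusted p = 2.45e-06), and NEFL exceeded NEFH by 8.32 ± 0.38 (adjusted p = 1.92e-05).

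Of the TPM summed over these 4 subunits, NEFM held 58.5% ± 0.614, NEFL 30.9% ± 0.173, INA 10.5% ± 0.464 and NEFH 0.0958% ± 0.0419. NEFH was called below 1 TPM (difference from 1 TPM of -2.61 ± 0.37 on the log2 scale, limma adjusted p = 0.00255). It rested on 21 estimated counts in replicate 1 (exact Poisson 95% interval 13.0 to 32.1, counting error only), against 3211 for NEFL, 6135 for NEFM and 1264 for INA. Of the 31-base words in the NEFH transcript, 12.1% also occur in transcripts of 2 other symbols, among them the pseudogene NEFHP1, which was listed at 0 in all 3 libraries. For NEFL and INA no word was shared with another symbol, and for NEFM 1.00% was, all with NEFMP1 (0, 0 and 0.105 TPM).

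NEFM and NEFL are neighbours on chromosome 8, with NEFM at 24913012 to 24919098 on the plus strand and NEFL at 24950955 to 24957110 on the minus strand. They lie 31856 bases apart with their 3' ends facing, and no other protein-coding gene of the table lies between them. On the outer sides, the nearest protein-coding genes were ADAM7 next to NEFM, listed at 0 in all 3 libraries, and DOCK5 next to NEFL at 7.59 ± 0.225 TPM. NEFH lies on chromosome 22 (29480230 to 29491390, plus strand).

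Within NEFM, 2 transcripts held most of the TPM: NEFM-203 at 58.3, 58.0 and 55.6 TPM and NEFM-202 at 36.9, 38.0 and 36.1 TPM. NEFM-201, the principal coding transcript of the annotation, was listed at 0, 0 and 0.349 TPM. NEFM-203 differs from it by lacking 752 bases at the 5' end and 117 internal coding bases, and holds no base that NEFM-201 lacks. NEFM-202 lacks 1080 of the principal coding bases and holds 361 bases that NEFM-201 lacks. Within NEFL, NEFL-201 stood at 22.7, 22.1 and 23.5 TPM and NEFL-203 at 22.4, 21.5 and 20.9 TPM. Their ranges overlapped, although NEFL-201 was the higher in each library. NEFL-203 lacks 280 principal coding bases and is annotated with 852 coding bases, against 1629 in NEFL-201. Another NEFL entry, NEFL-202, is annotated as a retained intron, includes 247 bases outside NEFL-201 and held 15.9% ± 1.04 of the TPM. Because these models share most of their bases, the split between them is uncertain. The gene sums carried a CV of 1.15% for NEFM and 0.913% for NEFL. The median CV was 4.54% over the 13475 symbols with a mean of at least 1 TPM.

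INA, NES and SYNM had a single transcript or 1 dominant coding transcript whose start lies near the RefSeq start, and their upstream sequences are printed to show the DNA from which these filament genes begin. INA lies on chromosome 10 (103277163 to 103290351, plus strand), NES on chromosome 1 (156668763 to 156677397, minus strand) and SYNM on chromosome 15 (99098217 to 99135593, plus strand). The windows are from RefSeq (GRCh38.p14) at chr10:103276888-103277137 on the plus strand, chr1:156677408-156677657 on the minus strand and chr15:99104830-99105034 on the plus strand. Each is written 5′ to 3′ and contains no annotated exon of its gene. Capitals mark the GC box (GGGCGG or, on the other strand, CCGCCC) and the CCAAT box (CCAAT or ATTGG).
INA: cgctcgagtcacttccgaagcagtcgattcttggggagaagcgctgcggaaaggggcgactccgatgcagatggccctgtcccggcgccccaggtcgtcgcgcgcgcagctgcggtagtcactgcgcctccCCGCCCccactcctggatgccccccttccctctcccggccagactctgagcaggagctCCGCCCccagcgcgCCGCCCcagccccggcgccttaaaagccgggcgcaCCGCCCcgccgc
NES: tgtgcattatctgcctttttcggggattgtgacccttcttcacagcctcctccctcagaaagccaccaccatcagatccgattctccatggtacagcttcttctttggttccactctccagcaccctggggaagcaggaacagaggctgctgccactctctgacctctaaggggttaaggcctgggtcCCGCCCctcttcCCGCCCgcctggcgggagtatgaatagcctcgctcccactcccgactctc
SYNM: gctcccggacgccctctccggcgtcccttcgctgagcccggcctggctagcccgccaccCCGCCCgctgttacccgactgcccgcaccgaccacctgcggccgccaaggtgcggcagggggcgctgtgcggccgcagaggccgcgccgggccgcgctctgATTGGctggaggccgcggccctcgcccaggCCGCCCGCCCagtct
INA showed 4 GC boxes, NES 2 and SYNM 3 in the printed bases, of which 2 in SYNM overlap, and SYNM also a CCAAT box. Over 35116 RefSeq promoters, 42.6% held a GC box and 32.0% a CCAAT box in their 250 upstream bases. None of the 3 held TATAAA on either strand, which 10.7% of promoters do. GC content was 72.8% for INA, 58.0% for NES and 79.0% for SYNM in the bases printed, beside a median of 58.0% over promoters. These matches describe the letters only. In the same table, the RefSeq start of VIM lies 1037 bases upstream of the start of VIM-201, and the PRPH window lies wholly inside the first exon of PRPH-201, so neither was printed.

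NES, known from neural stem and progenitor cells, was listed at 3.72, 3.69 and 3.89 TPM, and SYNM, a large linker-like filament protein, at 2.15, 1.89 and 2.05 TPM. The values of the 2 genes did not overlap, and NES exceeded SYNM by 0.89 ± 0.11 on the log2 scale (± SE; limma adjusted p = 0.000475). Both lay far below their filament partner: VIM exceeded NES 106-, 109- and 106-fold and SYNM 182-, 212- and 200.5-fold. INA exceeded NES 4.74-, 4.74- and 4.88-fold (limma adjusted p = 7.18e-07). Nearly all TPM of SYNM (94.3% ± 0.551) fell on SYNM-202, the longest model at 7394 bases. NES rested on 472 estimated counts in replicate 1 and SYNM on 363.

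The lineage filaments of peripheral neurons, astrocytes and muscle were low. PRPH was listed at 1.59, 1.66 and 1.58 TPM and GFAP at 1.77, 1.67 and 1.39 TPM. Both were called above 1 TPM, by 0.68 ± 0.10 and 0.67 ± 0.12 on the log2 scale (± SE; limma adjusted p = 0.00296 and 0.00617), and they overlapped each other. DES was listed at 0.257, 0.528 and 0.358 TPM and was called below 1 TPM (-1.43 ± 0.29, adjusted p = 0.00875). VIM exceeded DES by 10.06 ± 0.30 on the log2 scale (adjusted p = 7.52e-07), and all 9 other members lay below VIM, as did 98.5% of symbols tested.

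**Figure D2:**
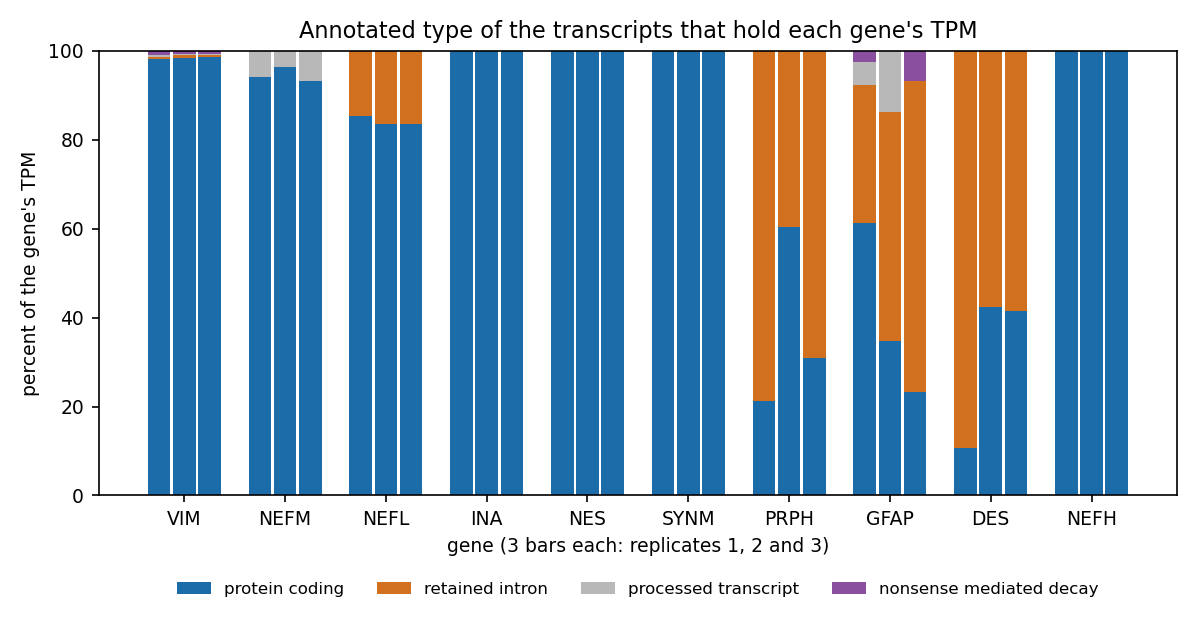
Percent of each gene's TPM held by transcripts of each annotated type, as stacked bars, with replicates 1, 2 and 3 side by side and genes ordered by mean TPM. VIM, NEFM and NEFL are mostly coding, INA, NES, SYNM and NEFH wholly so, while in PRPH, GFAP and DES retained introns take a share that differs between libraries.

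The above-1 calls of PRPH and GFAP depended on which transcripts were summed. Protein-coding transcripts held 21.3%, 60.4% and 30.98% of PRPH's TPM in replicates 1, 2 and 3, and 61.3%, 34.7% and 23.2% of GFAP's. Their coding TPM was 0.611 ± 0.347 for PRPH and 0.662 ± 0.388 for GFAP. Of the GFAP value, 0.342 ± 0.391 TPM fell on GFAP-224, which is annotated as protein-coding but holds only 26 coding bases. The principal coding transcript GFAP-214 held 0.0139 ± 0.0135 TPM. In DES, coding transcripts held 10.6%, 42.3% and 41.4%, or 0.133 ± 0.0988 TPM. With coding transcripts alone, an alternative chosen after the data were seen, the mean log2 difference from 1 TPM turned negative for PRPH (-0.85 ± 0.32, limma adjusted p = 0.0519) and GFAP (-0.75 ± 0.35, adjusted p = 0.0893). Neither was then called on either side, which left 6 members above 1 TPM. The same happened with the most abundant transcript alone (-0.25 ± 0.23, adjusted p = 0.3504 for PRPH, and -0.66 ± 0.28, adjusted p = 0.0858 for GFAP).

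PRPH lies on chromosome 12 (49293252 to 49298686, plus strand), and its most abundant entry was PRPH-203, annotated as a retained intron, at 1.05, 0.581 and 0.970 TPM. The principal coding transcript PRPH-201 stood at 0.249, 0.225 and 0.259 TPM. PRPH-203 is 865 bases long and PRPH-201 is 3245, and all but the first 27 bases of PRPH-203 are also exons of PRPH-201. Those 27 bases (chr12:49297121-49297147, plus strand, from the GENCODE release 29 transcript on hg38) are printed in capitals, followed by the first 20 bases of the shared exon, because they alone set the 2 models apart within PRPH-203.
PRPH-203: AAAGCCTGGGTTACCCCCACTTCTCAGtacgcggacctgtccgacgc
In replicate 1, PRPH-203 held 16.2 estimated counts and PRPH-201 17.9, nearly equal numbers, while per length the shorter model gave the higher TPM. PRPH had 39.0 estimated counts in all (exact Poisson 95% interval 27.7 to 53.3, counting error only), of which 49.4% lay on coding transcripts. Setting all of them on the length of PRPH-201 gave 0.542 TPM in replicate 1 instead of 1.59.

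GFAP lies on chromosome 17 (44903161 to 44916937, minus strand) and had 38 annotated transcripts, of which 9 were above 0 in at least 1 library and 4 in all. Its most abundant entry changed between libraries: GFAP-224, a 370-base fragment, in replicate 1 (0.769, 0.257 and 0 TPM) and GFAP-205, a 594-base retained intron, in replicates 2 and 3 (0.396, 0.753 and 0.826 TPM). The principal coding transcript GFAP-214 was listed at 0.0148, 0 and 0.0269 TPM. GFAP had 34.0 estimated counts in replicate 1 (interval 23.6 to 47.5), and setting them on the 6538 bases of GFAP-214 gave 0.226 TPM. The opposite-strand genes CCDC103 (4.50 ± 1.27 TPM) and FAM187A (3.70 ± 0.456 TPM) overlap the 3' end of GFAP, and their part in its reads was not tested. Of the words in GFAP transcripts, of the length used for NEFH, 1.94% also occur in transcripts of 2495 other symbols. For PRPH this share was 0.659%, with 7 other symbols, among them KRT7, listed at 0 in every library. Whether reads of other genes were assigned to GFAP or PRPH through such words was not tested. For DES, on chromosome 2 (219418377 to 219426739, plus strand), replicate 1 held 4 estimated counts (interval 1.09 to 10.2). Setting them on the length of DES-201 gave 0.0828 TPM instead of 0.257, under the 0.248 TPM of NEFH in that replicate. INA, NES and NEFH have 1 transcript each, so setting all counts on the principal transcript could not move them. For VIM and SYNM this step moved the level of replicate 1 by less than the spread between libraries. For NEFL and NEFM it gave 35.0 and 67.9 TPM. NEFL-201 is longer than NEFL-203 and NEFL-202, which held part of the NEFL counts, and NEFM-201 is longer than NEFM-203 and NEFM-202, which held most of the NEFM counts.

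**Figure D3:**
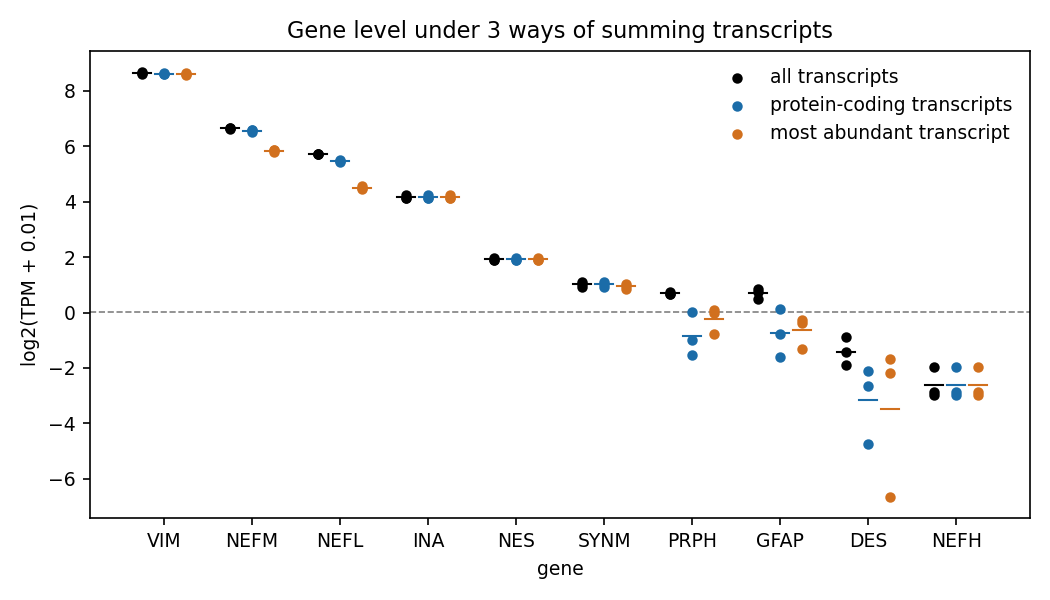
Level of each gene as log2(TPM + 0.01) when all transcripts, only protein-coding ones or only the most abundant one are summed; points are the 3 libraries, short bars their means and the dashed line 1 TPM. The choice leaves VIM and SYNM nearly in place and takes the means of PRPH and GFAP across the line. INA, NES and NEFH have 1 transcript each, so the choice cannot move them.

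Of the 45 pairs of members, 42 differed within libraries by the test used for NEFM and NEFL. Over all symbols, 99.8% differed from VIM, 99.2% from NEFM, 98.5% from NEFL, 96.8% from INA, 96.5% from NES and 95.7% from SYNM. The share was 95.0% for GFAP, 94.9% for PRPH, 87.6% for DES and 82.4% for NEFH, so differing was the usual outcome at this spread. The order was VIM, NEFM, NEFL, INA, NES, SYNM, PRPH, GFAP, DES and NEFH. Neighbours from VIM down to SYNM differed. PRPH and GFAP did not differ beyond their spread (0.01 on the log2 scale, 95% interval -0.33 to 0.35, limma adjusted p = 0.9754), nor did SYNM and GFAP (0.34, interval -0.05 to 0.72, adjusted p = 0.145). SYNM and GFAP passed with the most abundant transcript only (1.59 ± 0.48, adjusted p = 0.00113) and with coding transcripts only (1.77 ± 0.67, adjusted p = 0.0105). Both of these fits took the lower gene, GFAP, as the reference, so their p-values can be too small. The fit with the higher gene as the reference was not run for them. SYNM and PRPH passed with PRPH as the reference (0.33 ± 0.12, adjusted p = 0.0355) but not with SYNM as the reference (adjusted p = 0.0795), nor without replicate 1 or replicate 3 (adjusted p = 0.143 and 0.104). DES and NEFH were not told apart (1.18, interval -0.09 to 2.45, adjusted p = 0.0525 with NEFH and 0.0762 with DES as the reference), although their library ranges did not overlap. Without replicate 1, where DES was lowest and NEFH highest, that pair passed (1.75 ± 0.39, adjusted p = 1.26e-05). It also passed with a pseudocount of 0.1 (0.86 ± 0.40, limma adjusted p = 0.0371) or 1 (0.24 ± 0.10, adjusted p = 0.0229). All of these passes took the lower gene, NEFH, as the reference, so their p-values can be too small. The intervals take the higher gene of the pair as the reference.

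As shares of the TPM summed over the 10 genes, VIM held 69.0% ± 0.534, NEFM 17.2% ± 0.436, NEFL 9.07% ± 0.121 and INA 3.10% ± 0.102, and the other 6 genes each held under 1%. Class III genes together held 69.6% ± 0.511 and class IV genes 30.4% ± 0.511. The 10 genes summed to 574, 580 and 590 TPM. In estimated counts of replicate 1, with no length correction, class IV held 42.8% and VIM 56.9%. NEFM-203 (3148 bases), NEFM-202 (2519), NEFL-201 (4082) and INA-201 (3231) are longer than VIM-201 (1868). NEFL-203 (1879) is about as long as VIM-201, and NEFL-202 (1497) and NEFM-206 (582) are shorter.

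The nearest protein-coding neighbours of the other members above 1 TPM were mixed in level. Beside VIM lay TRDMT1 (7.78 ± 0.133 TPM) and ST8SIA6 (0.625 ± 0.230 TPM, undecided), and beside INA lay RPEL1 (0, 0 and 0.0221 TPM) and PCGF6 (34.3 ± 1.27 TPM). NES lay between BCAN (0.151 ± 0.0768 TPM) and CRABP2 (63.8 ± 0.995 TPM), and SYNM between PGPEP1L (0.0332, 0 and 0.0860 TPM) and TTC23 (21.1 ± 1.67 TPM). GFAP, at 1.61 ± 0.200 TPM, lay between EFTUD2 (208 ± 3.50 TPM) and KIF18B (46.2 ± 0.983 TPM), and PRPH, at 1.61 ± 0.0415 TPM, between TUBA1C (676 ± 17.8 TPM) and TROAP (81.1 ± 3.36 TPM). Members above 1 TPM thus had neighbours on both sides of that level.

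Beside these genes, other intermediate filaments included the nuclear lamins and 2 simple epithelial keratins. Of 14 such genes 9 passed as above 1 TPM, beside 61.5% of all protein-coding symbols. SYNC (0.864 ± 0.165 TPM) passed in neither direction, and KRT7, KRT19 and KRT20 had 0 in every library. Highest were the lamin genes LMNB1 (178 ± 2.59 TPM) and LMNB2 (169 ± 6.22 TPM) and the keratin gene KRT10 (62.1 ± 4.92 TPM). The lens filament gene BFSP2 was below at 0, 0.322 and 0 TPM. The keratin pair KRT8 and KRT18 summed to 86.6 ± 1.70 TPM, under NEFM alone, while the 3 lamin genes summed to 407 ± 8.29 TPM, beside 401 ± 8.62 TPM for VIM.

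Genes that link, modify, clear and carry filaments were counted against 1 TPM, above which 61.5% of all 19802 protein-coding symbols lay. Of 9 linker genes, 7 lay above, led by the spectraplakin MACF1 (65.8 ± 2.84 TPM), the desmosomal plakin DSP (49.8 ± 0.0930 TPM) and the plakin DST (38.2 ± 1.91 TPM), while PPL (0.258 ± 0.0193 TPM) and EVPL (0.212 ± 0.0769 TPM), which encode periplakin and envoplakin, lay below. Of 16 kinases, kinase activators and phosphatases, 15 lay above. The mitotic kinase AURKB, which phosphorylates vimentin, stood at 210.2 ± 3.94 TPM, and the phosphatase genes PPP1CA and PPP2CA at 186 ± 4.39 and 149.9 ± 8.26 TPM. The exception was CDK5R2, a neuronal activator of the neurofilament kinase CDK5, at 0.194 ± 0.0592 TPM. Of 7 turnover genes 6 lay above, led by the ligase STUB1 (121 ± 3.26 TPM), the small heat shock gene HSPB1 (118 ± 3.03 TPM) and the cullin CUL3 (61.6 ± 1.33 TPM), with the desmin chaperone CRYAB below at 0, 0.152 and 0 TPM. All 7 motor genes lay above, from KIF5C (7.58 ± 0.245 TPM) to DCTN1 (139.6 ± 4.10 TPM), KLC1 (134 ± 1.98 TPM) and DYNC1H1 (304 ± 4.65 TPM). Of 14 transcription factors known to act on filament genes, 10 lay above, led by JUN (125 ± 3.47 TPM), SP1 (37.4 ± 1.21 TPM) and SRF (35.7 ± 0.328 TPM), and 4 below: FOSL1 (0.551 ± 0.0602 TPM), SOX11 (0.0147 ± 0.00979 TPM), POU3F4 (0.0116, 0 and 0 TPM) and MYOCD (0.0198, 0 and 0 TPM).

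Markers of the cell types in which these filaments are best known, and of other cell types, were also counted against 1 TPM. Of all 19802 protein-coding symbols, 61.5% lay above that level, 20.6% lay below, 4.8% were undecided and 13.0% were listed at 0. These shares are the background for every marker list here and in the next paragraph, and no list was tested against them. Of 12 neuronal markers, 6 lay above 1 TPM, led by MAPT (14.3 ± 1.94 TPM), MAP1B (12.6 ± 0.270 TPM) and TUBB3 (8.94 ± 0.189 TPM), and ELAVL4 was listed at 0. The 5 below were MAP2 (0.240 ± 0.0613 TPM), STMN2 (0.210 ± 0.133 TPM), DCX (0.0655 ± 0.0606 TPM), ELAVL3 (0.0474 ± 0.0666 TPM) and SNAP25 (0.0150 ± 0.0260 TPM). Of 6 markers of peripheral and autonomic neurons, POU4F1 (23.0 ± 0.571 TPM), ISL1 (8.19 ± 0.728 TPM) and HAND2 (2.29 ± 0.475 TPM) lay above, and PHOX2A, TH and DBH were listed at 0. Of 6 neural progenitor markers, PAX6 (23.1 ± 0.731 TPM), MSI1 (22.7 ± 2.42 TPM) and SOX2 (7.41 ± 0.144 TPM) lay above and HES5 was undecided, while FABP7 (0.0618 ± 0.0375 TPM) and SOX1 (0.0320, 0 and 0.0158 TPM) lay below. Of 6 astrocyte markers, GJA1 (46.3 ± 0.850 TPM) and SLC1A3 (29.8 ± 0.852 TPM) lay above and 4 below, SLC1A2 at 0.535 ± 0.0908 TPM and ALDH1L1 lowest at 0.299 ± 0.134 TPM.

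Of 9 muscle markers, only ACTA2 (2.74 ± 0.473 TPM) lay above, 5 lay below, MYH11 (1.16 ± 0.102 TPM) and ACTA1 (0.983 ± 0.0888 TPM) were undecided, and MYF5 was listed at 0. Of 6 mesenchymal markers, CDH2, COL1A1 and FN1 lay above at 24.2 ± 0.440, 18.1 ± 0.407 and 14.9 ± 1.73 TPM, and COL3A1 was undecided, while PDGFRB (0.161 ± 0.0804 TPM) and THY1 (0, 0 and 0.0125 TPM) lay below. Of 5 epithelial markers 4 lay above, with KRT18 at 55.2 ± 1.55 TPM, KRT8 at 31.3 ± 1.43 TPM and CDH1 at 2.82 ± 0.868 TPM, and CLDN4 (0.577 ± 0.177 TPM) below. None of 7 blood and endothelial markers lay above, from PTPRC (0.320 ± 0.136 TPM), PECAM1 (0.270 ± 0.0949 TPM) and SPI1 (0.151 ± 0.117 TPM) down to CD3E and HBB, listed at 0. In bulk RNA, a few cells with much of a transcript and many cells with little cannot be told apart.

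**Figure D4:**
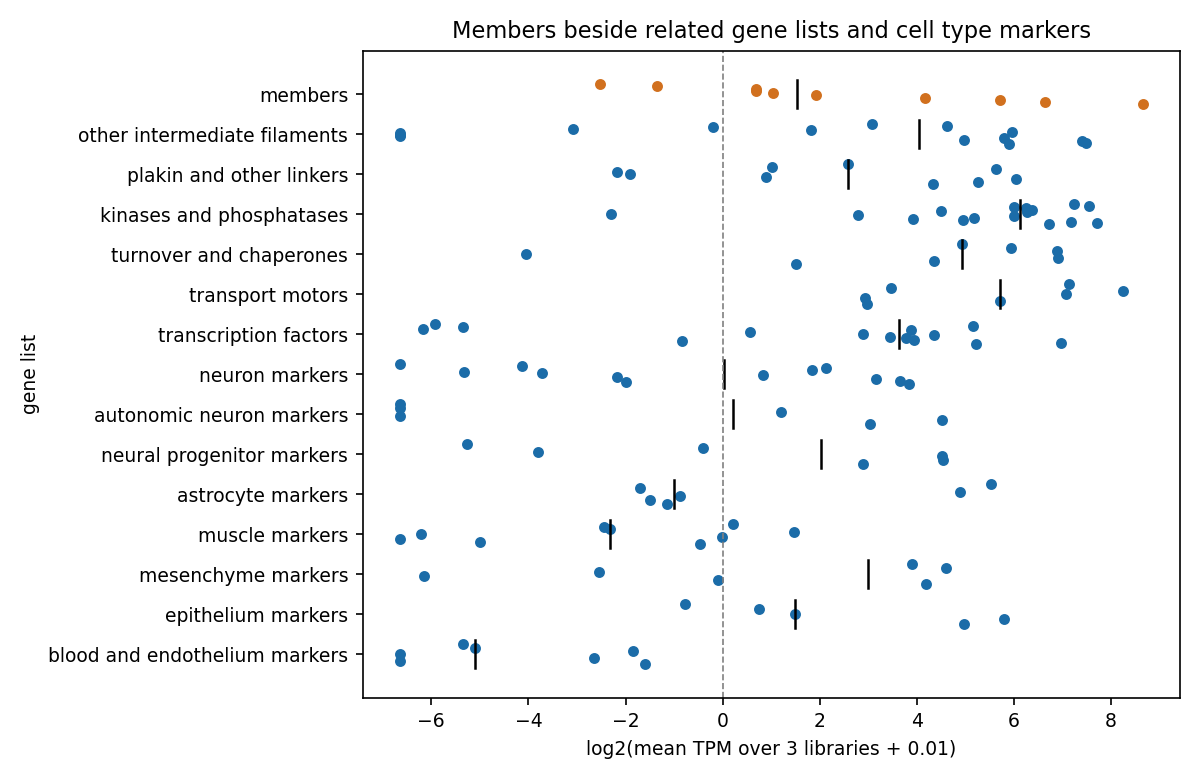
Mean level of each gene as log2(TPM + 0.01) in the family (top row) and in each related list or marker list; points are genes, vertical bars list medians and the dashed line 1 TPM. Kinases, turnover genes and motors lie mostly to the right of the line, blood and endothelial markers wholly to its left, and the family spans both sides.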

How the data were processed

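Per the labels' protocols, libraries came from Trizol RNA by oligo-dT capture and a directional kit. Transcripts were quantified with kallisto on hg38, per the submitters' processing notes; its version, options and transcript release are not given in the sources used here. Per transcript, the authors deposited TPM in each library, their mean TPM, transcript and effective lengths, and 1 column of estimated counts that names no library. Those deposited estimated counts summed to 33184885 and, divided by effective length and rescaled, matched the TPM of replicate 1 (median relative difference 1.48e-06, against 0.309 and 0.315 for replicates 2 and 3). They are therefore read here as replicate 1. TPM keeps no depth for the other libraries.

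TPM was summed by symbol, and all 76 transcripts of the 10 genes were matched to GENCODE release 29 by identifier. Levels were tested with limma 3.58.1 (R 4.3.3) on log2(TPM + 0.01) with a variance trend, over symbols above 0 in at least 1 library, at an adjusted p under 0.05. Pairs were tested on within-library differences from 1 reference gene at a time, over all symbols; a low reference adds its own spread to every difference, so such p-values can be too small, and the fit with the higher gene as the reference was added after the data were seen. The script was tested on simulated data, in which the pair reference was not a low gene, so the case of a low reference was not covered. Named were all 10 genes and, per list, the 3 highest, the lowest and calls against the list's majority, and the nearest genomic neighbours of members above 1 TPM. Some list genes are not reported here. The genes and lists were chosen with earlier results of these data known. edgeR 4.0.16 served only for TMM factors. Log2 differences understate those of low genes.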

Additional observations from a re-analysis of the deposited data

How the results depend on the processing

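No paired analysis was possible because the 3 libraries form 1 group. The count of 8 members above and 2 below 1 TPM was the same with other pseudocounts, without the variance trend, with TMM, median-of-ratios or mitochondria-free scaling, with the filter at 0.1 TPM and without each replicate. Against 2 TPM, 5 members lay above, SYNM and GFAP (-0.32 on the log2 scale) were undecided and PRPH (-0.31) was called below, and against 0.5 TPM 1 lay below. With the most abundant transcript only, GFAP stood at -0.66 and PRPH at -0.25, and with protein-coding transcripts only (chosen after the data were seen) at -0.75 and -0.85. The pairs called ran from 40 to 43 over all settings and from 41 to 42 without each replicate. DES minus NEFH turned to -0.90 with the most abundant transcript and -0.57 with coding transcripts only; PRPH minus GFAP turned to -0.092 with coding transcripts and ran from -0.083 to 0.089 without each replicate, none of these called. With the most abundant transcript only, SYNM, PRPH and GFAP no longer passed against DES, although the differences grew (4.44 ± 2.09, 3.27 ± 2.08 and 2.85 ± 2.08, ± SE) from 2.44, 2.11 and 2.10; the cause was not tested. The VIM share was 78.6% with the most abundant transcript, 56.9% by estimated counts without length and 70.6% by coding transcripts; the class IV share was 21.0%, 42.8% and 29.2%, and that of NEFL and NEFM together, 26.3% ± 0.541, was 16.2%, 34.9% and 24.9%. Precision for DES, NEFH, GFAP and PRPH is limited by their few reads.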
